A study of Arabidopsis thaliana with 6 samples.

Results

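The genes described here are 36 nuclear genes of Arabidopsis thaliana that encode enzymes of the Calvin cycle and of photorespiration. They were taken by locus identifier from a list, out of 24439 genes in the files, and all 36 were present. The Calvin cycle set of 21 genes holds carbonic anhydrase, 4 Rubisco small subunit genes, Rubisco activase, the enzymes of the reduction and regeneration steps and 2 CP12 regulators. The photorespiration set of 15 genes follows the pathway through chloroplast, peroxisome and mitochondrion. RNA was sequenced from seedlings of 3 genotypes in 6 libraries, with 2 biological replicates per genotype. The f1f3 seedlings were labelled as homozygous for fypp1 and fypp3, 2 genes for catalytic subunits of the protein phosphatase PP6. The pifq seedlings carried the genotype label "pifq1 pifq3 piq4 pifq5 homozygote", read here as loss of the transcription factors PIF1, PIF3, PIF4 and PIF5. Col is the wild type. All seedlings shared 3 days of stratification at 4 °C in darkness, 12 h of white light and then 4 days in the dark at 22 °C, and were harvested at day 4.

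The Calvin cycle fixes CO2 in the chloroplast stroma: Rubisco joins CO2 to ribulose bisphosphate, the product is reduced with ATP and NADPH, and the acceptor is regenerated. When Rubisco takes up O2 in place of CO2 it forms phosphoglycolate, and photorespiration salvages that carbon in a route that crosses chloroplast, peroxisome and mitochondrion. In a dark-grown seedling the plastids are etioplasts and neither pathway turns over, and many of these genes are known to be induced by light. PIF proteins restrain light-type development in darkness. The comparisons ask how far loss of PP6 subunits or of PIFs moves the transcripts of both pathways in the dark.

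Values are deposited values, that is gene reads divided by a size factor of the library, and 17899476 to 27681383 reads per library were recovered from them. Fold changes are on the scale of log2(value + 1) and come with their standard error (SE). The test was limma on the 20581 genes whose value reached 10 in 2 or more libraries. A gene is said to rise or fall where its Benjamini-Hochberg adjusted p, over all genes tested, was under 0.05. In f1f3, both mutated genes fell: FYPP1 by limma at an adjusted p of 0.00846 (log2 fold change -1.14, SE 0.21) and FYPP3 at 0.00737 (-1.11, SE 0.19). In pifq, PIF3 (-5.24, SE 0.24, adjusted p = 4.6e-05) and PIF5 fell (-2.32, SE 0.34, adjusted p = 0.00932). PIF1 was at 0.46 (adjusted p = 0.125) and PIF4 at 0.89 (adjusted p = 0.0808) in pifq. In f1f3, PIF4 fell (log2 fold change -2.15, SE 0.26, adjusted p = 0.00277) and so did PIF5 (-1.13, SE 0.34, adjusted p = 0.0458). The PIF5 call in f1f3 ended with library totals, with no filter on low values and without either Col library or f1f3 replicate 2. The PIF5 call in pifq ended without Col replicate 2 or pifq replicate 1, and the FYPP1 call in f1f3 without f1f3 replicate 2. Library pifq replicate 1 stood apart: 15 seed storage genes summed to a value of 21326 there, against 36.1 in pifq replicate 2, 163 and 215.2 in f1f3 and 43.2 to 173.6 in Col. Counts without it are given beside each comparison. Because seedlings were sampled in bulk, fewer of the cells that express these genes and less of their RNA per cell cannot be told apart. Of a list of 10 root genes, 5 rose and 1 fell in f1f3, where 11.6% of all tested genes rose and 12.8% fell. PYK10, of root and hypocotyl ER bodies, made up most of the summed value of the list, with 108896 and 74404 in f1f3, 125842 and 108540.0 in pifq and 141553 and 125314 in Col. The other 9 genes, none at 0, summed to 26185 and 28494 in f1f3, 3601 and 7419 in pifq and 7544 and 12447 in Col, so that both f1f3 libraries were above all others. The root hair genes PRP3 and LRX1 made up most of that sum in f1f3. PRP3 was at 14069 and 16089 in f1f3, against 2507 and 3765 in Col. LRX1 was at 7494 and 8129 in f1f3, against 1626 and 2642 in Col. The 5 genes that rose were all root hair genes (EXPA18, EXPA7, LRX1, PRP3 and COBL9). The 1 that fell was IRT1, an iron transporter of the root epidermis, at 22.2 and 0.9 in f1f3 and 277.6 and 1660.2 in Col. In pifq none of the 10 passed by limma, edgeR or DESeq2, and 2 were lower at an unadjusted p under 0.05. PORA, the protochlorophyllide oxidoreductase of dark-grown seedlings, was at 38261 and 30154 in f1f3, 9679 and 9810 in pifq and 64658 to 70965 in Col. The part of these tissues in the results was not tested.

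Transcripts of both pathways were lower in f1f3 than in Col. Of 21 Calvin cycle genes 14 fell, and of 15 photorespiration genes 10 fell, where 24.4% of all tested genes changed and 12.8% fell. None of the 36 rose, also at an unadjusted p under 0.05 and with edgeR or DESeq2. The median log2 fold change was -1.45 for Calvin cycle genes, which ranged between -4.09 and 0.47. For photorespiration genes it was -0.87, with a range between -4.14 and 0.18, and over all genes tested it was -0.0038. Both f1f3 libraries lay below both Col libraries for 20 of 21 Calvin cycle genes and 13 of 15 photorespiration genes, which was the case for 33.0% of all genes. The exceptions were RPI3 and GLDP2, whose groups overlapped, and CAT2, which was higher in both f1f3 libraries than in both Col libraries (32.8% of all genes were). Without f1f3 replicate 2 the numbers that fell were 7 and 6, and without Col replicate 2 they were 9 and 5, for the Calvin cycle and photorespiration. Without Col replicate 1, 6 photorespiration genes fell. Without pifq replicate 1 the numbers were 13 and 9.

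**Figure D1:**
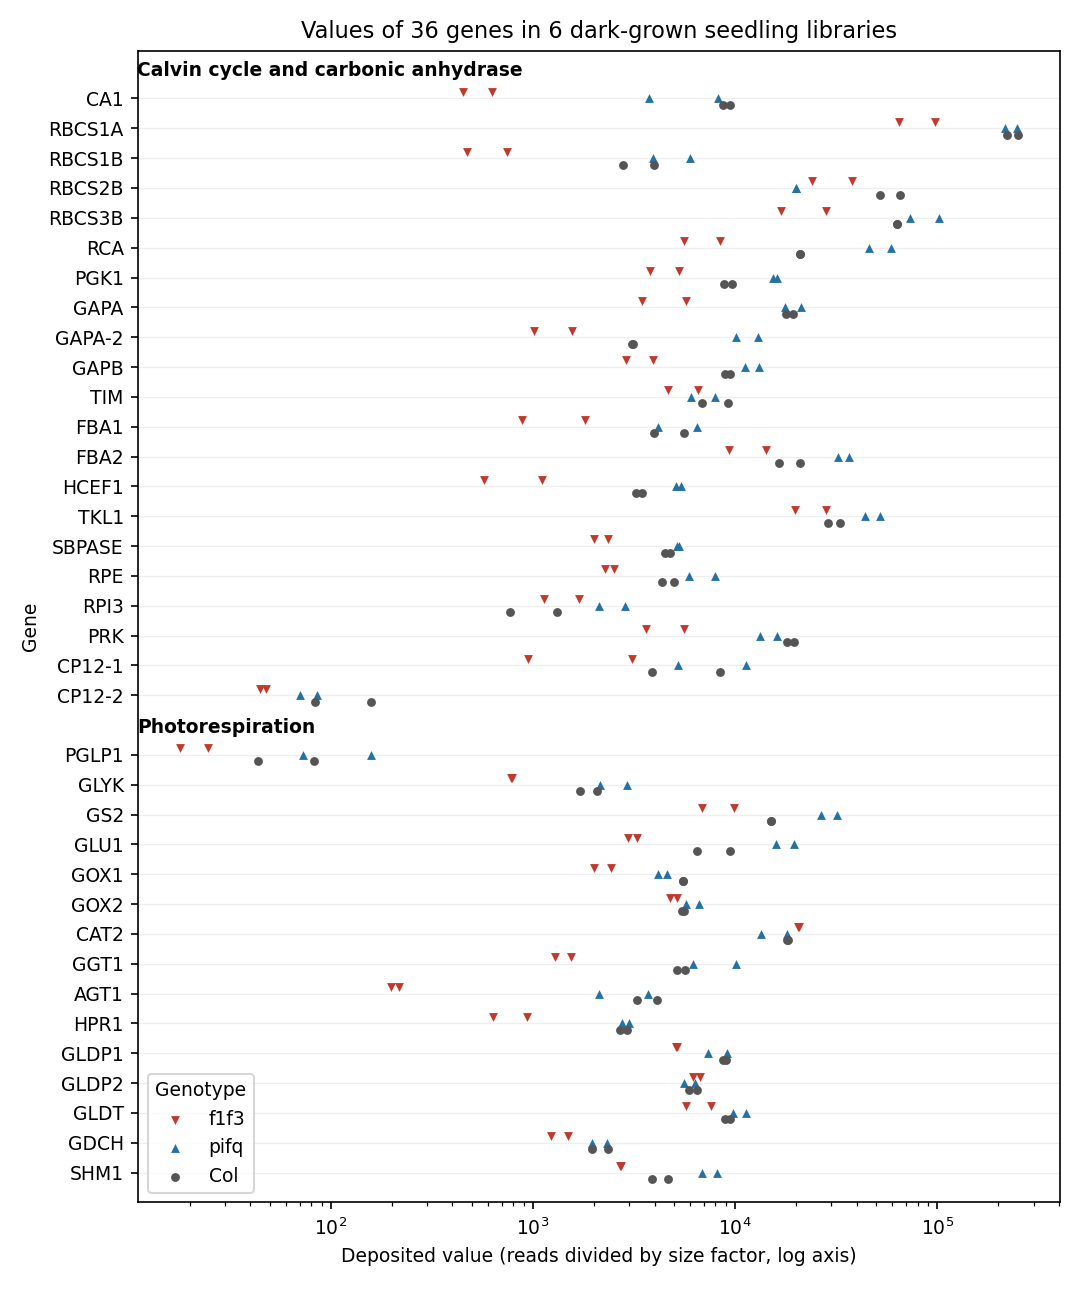
Deposited value of each of the 36 genes (log axis) in the 2 libraries of f1f3 (red), pifq (blue) and Col (grey), each point 1 library. The red points lie to the left of the grey ones for 20 of 21 Calvin cycle genes and 13 of 15 photorespiration genes.

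In pifq few of the genes differed from Col past the threshold. RCA, GAPA-2 and RPI3 rose and RBCS2B fell among the 21 Calvin cycle genes, and GLU1 and SHM1 rose among the 15 photorespiration genes. The background in that comparison was 6.48% of all tested genes, with 3.61% that rose and 2.87% that fell. The median log2 fold change was 0.43 for Calvin cycle genes and 0.16 for photorespiration genes. Both pifq libraries lay above both Col libraries for 11 Calvin cycle genes and 7 photorespiration genes (27.1% of all genes), and below them for 3 and 2 (27.4%). No photorespiration gene fell in pifq by limma, nor at an unadjusted p under 0.05, nor with edgeR or DESeq2. Leaving out pifq replicate 1 left 1 Calvin cycle gene called, GAPA-2, and 0 photorespiration genes, and so did leaving out the other pifq library or Col replicate 2. Without Col replicate 1 the numbers were 2 and 0.

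Set directly against f1f3, pifq seedlings had more transcript of most genes. In pifq 15 of 21 Calvin cycle genes and 10 of 15 photorespiration genes rose relative to f1f3, where 16.0% of all tested genes changed and 9.36% rose. None fell, where 6.63% of all genes did, also at an unadjusted p under 0.05 and with edgeR or DESeq2. The median difference was 1.82 on the log2 scale for Calvin cycle genes and 1.46 for photorespiration genes. With a library left out, these medians ranged from 1.45 to 2.05 and from 1.34 to 1.59. GDCH, counted among the 10, was close to the threshold (0.66, limma adjusted p = 0.0497). Its call ended with edgeR (0.0585 with TMM factors, 0.0579 with RLE factors) and without any one of the 6 libraries. Both pifq libraries lay above both f1f3 libraries for 19 Calvin cycle genes and 13 photorespiration genes, against 29.3% of all genes. Without pifq replicate 1, 13 Calvin cycle genes and 9 photorespiration genes rose. Both mutants were compared with the same 2 Col libraries, so their changes against Col are not independent. Side by side, 14 Calvin cycle genes and 9 photorespiration genes were below Col in f1f3 and above Col in pifq by the fitted change. Another 6 and 4 were below Col in both mutants, RPI3 was above it in both, and CAT2 and GLDP2 were above it in f1f3 and below it in pifq.

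**Figure D2:**
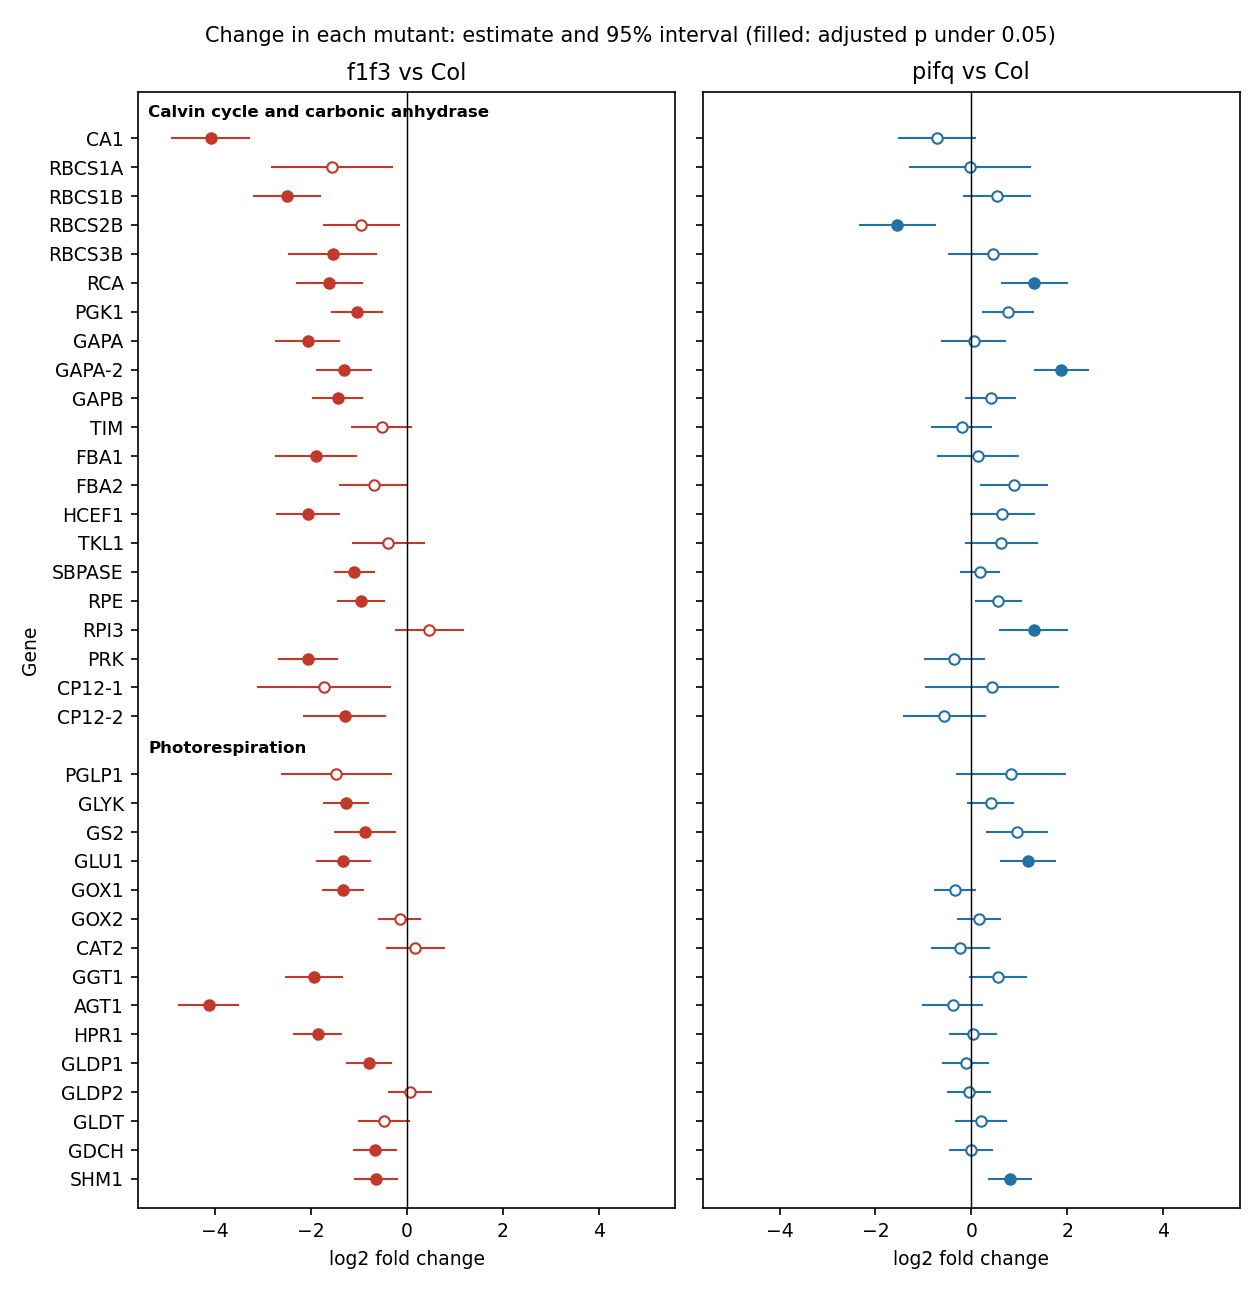
Log2 fold change of each gene in f1f3 against Col (left) and pifq against Col (right), with the 95% interval of the limma fit, filled where the adjusted p was under 0.05. On the left 24 of 36 points are filled, all below 0; on the right 6 are filled, 5 above 0 and RBCS2B below it.

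CO2 supply is represented by CA1 (AT3G01500, TAIR10.1 chr3:194426-198664), the stromal carbonic anhydrase that interconverts CO2 and bicarbonate. It stood at 626.7 and 452 in f1f3, at 3745 and 8257 in pifq and at 8752 and 9486 in Col. The f1f3 libraries were far below all others, and the pifq libraries differed more from each other than the Col libraries did. CA1 fell in f1f3 with a log2 fold change of -4.09 (SE 0.35, limma adjusted p = 0.00115). In pifq the change was -0.71 (adjusted p = 0.26, 95% interval -1.51 to 0.08), and pifq was above f1f3 by 3.38 (adjusted p = 0.000879). Its relative CA2 (AT5G14740), a cytosolic enzyme, fell in f1f3 (log2 fold change -3.16, SE 0.32, adjusted p = 0.00209). CA2 also fell in pifq (log2 fold change -1.73, SE 0.32, adjusted p = 0.0215), a call that ended without any one of the Col or pifq libraries (highest adjusted p 0.113).

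Of the 4 small subunit genes of Rubisco, 3 had by far the most transcript among the 36 genes in Col. In RPKM, reads scaled to exon length and library total, the level in Col was 8511 ± 126 for RBCS1A, 2865 ± 269 for RBCS2B, 2054 ± 138 for RBCS3B and 81.3 ± 14.6 for RBCS1B (SD, n = 2). The next gene in Col after RBCS3B was GAPA, with 488 ± 61.0. In pifq RCA, at 1132 ± 201, was above RBCS2B, at 976 ± 3.23. RBCS1A (AT1G67090) lies on chromosome 1, and RBCS1B (AT5G38430), RBCS2B (AT5G38420) and RBCS3B (AT5G38410) stand in a row on the minus strand of chromosome 5, from 15376988 to 15385320 in TAIR10.1. Their coding sequences are 87.7% to 97.3% identical, and RBCS1B and RBCS3B share an unbroken run of 230 bases. How reads that fit several copies were counted is not given in the sources used here, so the split between copies is uncertain.

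Stretches before the start codon are printed for the 4 genes because the calls were not the same for all 4 genes. Only the stretch of RBCS2B lies before the annotated gene start, and the others lie within their annotated genes. Each line starts at an I-box (GATAAG), and capitals mark I-boxes on either strand (CTTATC on the other) and G-boxes (CACGTG, the core of the sequence that PIF proteins bind). All lie on the minus strand of TAIR10.1 and read 5′ to 3′.
RBCS1A, chr1:25049503-25049532, 283 bases before the start codon: GATAAGattcatggaattatcttcCACGTG
RBCS2B, chr5:15382188-15382217, 239 bases before the start codon: GATAAGattatggagttttctgcCACGTGa
RBCS3B, chr5:15378517-15378546, 240 bases before the start codon: GATAAGataatggagttttctgcCACGTGg
RBCS1B, chr5:15385291-15385320, 165 bases before the start codon: GATAAGggtgtcaacacctttccttaatca
In RBCS1A, RBCS2B and RBCS3B a G-box follows the I-box within the 30 bases shown, and RBCS1B has no G-box in the 500 bases before its start codon. RBCS1B has 2 I-boxes and 1 PBE-box (CACATG) in those 500 bases. Of 22766 genes, 21 (0.0922%) have an I-box followed by a G-box at a spacing of 10 to 18 bases in that window on either strand. Of these, 3 are the small subunit genes above. The motif pair and its spacing were chosen after the data were seen, and the spacing in RBCS1A is itself 18 bases. That these 3 genes are among the 21 therefore carries no weight. RBCS2B was the small subunit gene that fell in pifq. The 250 bases before its annotated start hold 3 I-boxes and 1 G-box and overlap no other protein-coding gene:
RBCS2B, chr5:15382072-15382321: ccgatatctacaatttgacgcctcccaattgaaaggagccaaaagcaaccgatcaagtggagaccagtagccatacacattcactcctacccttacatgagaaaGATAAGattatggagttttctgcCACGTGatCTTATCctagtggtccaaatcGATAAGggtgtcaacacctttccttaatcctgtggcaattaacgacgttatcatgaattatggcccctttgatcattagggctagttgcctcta
The 30-base site of RBCS1B shares a run of 29 bases with this region, around the last I-box.

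RBCS1A had 97735 and 64981 in f1f3, 215667 and 247743 in pifq and 250831 and 222663 in Col. The f1f3 libraries were lowest, yet the change in f1f3 did not pass (limma adjusted p = 0.0687, log2 fold change -1.57, SE 0.54). It did pass with edgeR and TMM factors (adjusted p = 0.0177) or RLE factors (0.0197), with DESeq2 (2.18e-08) and with library totals (0.0208). Relative to f1f3, pifq was higher by 1.54 (limma adjusted p = 0.0938), which passed under the same 4 settings (highest 0.0293). Against Col the change in pifq was -0.03 (95% interval -1.28 to 1.22). RBCS1B was at 743.2 and 471.3 in f1f3, at 5975 and 3918 in pifq and at 3990.3 and 2802 in Col. It fell in f1f3 (log2 fold change -2.50, SE 0.30, adjusted p = 0.00285) and was at 0.53 in pifq (adjusted p = 0.323), where the pifq and Col libraries overlapped.

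RBCS2B departed from the other 3. Its values were 38059 and 24134 in f1f3, 20130.1 and 20129 in pifq and 65719 and 52143 in Col. Here the pifq libraries were the lowest of all, below both f1f3 libraries as well. RBCS2B fell in pifq (limma adjusted p = 0.0374, log2 fold change -1.54, SE 0.34), and its change in f1f3 was -0.95 (adjusted p = 0.0753, and 0.00323 with DESeq2). The call in pifq ended without any one of the Col or pifq libraries, with adjusted p from 0.121 to 0.184. RBCS3B stood at 28112 and 16793 in f1f3, 73420 and 102045 in pifq and 63459 and 63252 in Col. It fell in f1f3 (log2 fold change -1.54, SE 0.40, adjusted p = 0.0262) and was at 0.45 in pifq (adjusted p = 0.538). That fall no longer passed without f1f3 replicate 2 (0.126), Col replicate 1 (0.107) or Col replicate 2 (0.124). Relative to f1f3, pifq was higher by 1.99 for RBCS3B (adjusted p = 0.0134), a call that ended without f1f3 replicate 2 (0.0711) or pifq replicate 2 (0.0816), and higher by 3.03 for RBCS1B (adjusted p = 0.000763).

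The mix of small subunit transcripts is given as shares. RBCS2B made up 22.9% ± 0.303 of the reads of the 4 genes in f1f3, 5.89% ± 0.709 in pifq and 16.2% ± 1.28 in Col (SD, n = 2). RBCS3B took 16.4% ± 0.911 in f1f3, 25.3% ± 2.83 in pifq and 17.5% ± 1.44 in Col. The 3 groups did not overlap for RBCS2B, and for RBCS3B the pifq libraries lay above all others. RBCS1A held 60.2% ± 1.22 in f1f3, 67.3% ± 1.52 in pifq and 65.3% ± 0.0022 in Col. RBCS1B held 0.447% ± 0.00586 in f1f3, 1.47% ± 0.599 in pifq and 0.931% ± 0.153 in Col. The widest 95% Wilson interval of any share reached 0.274 percentage points to each side, for counting error only. With 2 libraries against 2, an exact two-sided permutation test cannot give a p below 0.333.

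**Figure D3:**
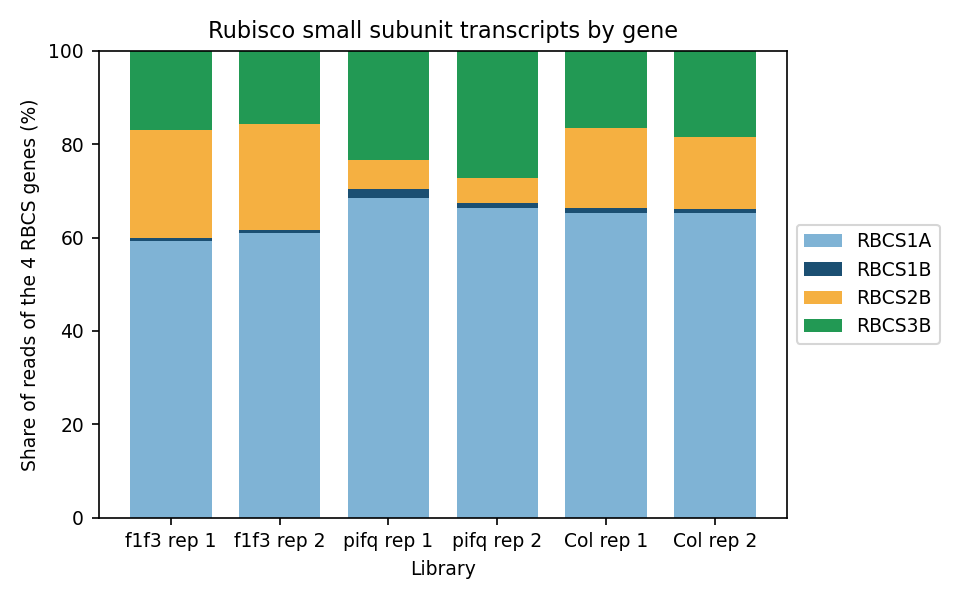
Share of the reads of the 4 small subunit genes (%) that fell on each gene, 1 bar per library, with f1f3 and pifq to the left of Col. The RBCS2B band averages 22.9% in f1f3, 5.89% in pifq and 16.2% in Col.

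RCA (AT2G39730) encodes Rubisco activase, which frees Rubisco of bound inhibitory sugar phosphates. It moved in opposite directions in the mutants. Its values were 8388 and 5574 in f1f3, 45987 and 58894 in pifq and 21063 and 20864 in Col, with no overlap between any of the groups. RCA fell in f1f3 (limma adjusted p = 0.0088, log2 fold change -1.62, SE 0.30) and rose in pifq by 1.31 (SE 0.30, adjusted p = 0.0398). Between the mutants it was higher in pifq by 2.93 (adjusted p = 0.000843). The call in f1f3 ended without Col replicate 2 (adjusted p = 0.0519) or f1f3 replicate 2 (0.0566), and that in pifq without any one of the Col or pifq libraries (0.106 to 0.174).

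In the reduction step phosphoglycerate kinase (PGK1, AT3G12780) and glyceraldehyde-3-phosphate dehydrogenase, an assembly of A and B subunits, turn phosphoglycerate into triose phosphate. All 4 genes of the step fell in f1f3, with a median of -1.38, and 1 rose in pifq. The genes for the A subunit, GAPA (AT3G26650) and GAPA-2 (AT1G12900), are 76.7% identical in coding sequence. GAPA had 5733 and 3466 in f1f3, 17591 and 21163 in pifq and 17938 and 19412 in Col. It fell in f1f3 (limma adjusted p = 0.0039, log2 fold change -2.07, SE 0.28), while pifq and Col overlapped (0.05, 95% interval -0.61 to 0.70). GAPA-2 had 1559 and 1011 in f1f3, 10059 and 13006 in pifq and 3133 and 3079 in Col. The 3 genotypes were fully separated for GAPA-2, with pifq highest. It fell in f1f3 (log2 fold change -1.31, SE 0.24, adjusted p = 0.00926) and rose in pifq by 1.88 (SE 0.24, adjusted p = 0.00563), and it was higher in pifq than in f1f3 by 3.19 (adjusted p = 0.000309). Only the call in f1f3 ended with a library left out, f1f3 replicate 2 (adjusted p = 0.0565). The ratio of GAPA-2 to GAPA values was 0.272 and 0.292 in f1f3, 0.572 and 0.615 in pifq and 0.175 and 0.159 in Col, higher in both mutants than in Col. PGK1 and GAPB (AT1G42970), the B subunit, fell in f1f3 (-1.04 and -1.45) and did not pass in pifq by limma (0.77 and 0.40), where PGK1 passed with DESeq2 (adjusted p = 0.00696). The call for PGK1 ended without f1f3 replicate 2 (adjusted p = 0.0867), Col replicate 1 (0.0809) or Col replicate 2 (0.0696).

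Regeneration of ribulose bisphosphate runs through triose phosphate isomerase (TIM), aldolase (FBA1, FBA2), fructose bisphosphatase (HCEF1), transketolase (TKL1), sedoheptulose bisphosphatase (SBPASE), ribulose phosphate epimerase (RPE), ribose phosphate isomerase (RPI3) and phosphoribulokinase (PRK). Of the 9 genes, 5 fell in f1f3 (median -0.96) and 1 rose in pifq (median 0.57). PRK (AT1G32060), which makes the CO2 acceptor itself, had 5595 and 3616 in f1f3, 13350 and 16110.0 in pifq and 18057 and 19516 in Col. The f1f3 libraries were far below the rest, and both pifq libraries were somewhat below both Col libraries. PRK fell in f1f3 (limma adjusted p = 0.00331, log2 fold change -2.06, SE 0.27) and did not pass in pifq (-0.36, adjusted p = 0.463).

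The aldolase genes FBA1 (AT2G21330) and FBA2 (AT4G38970), 82.9% identical in coding sequence, had different calls in f1f3. FBA1 had 1806 and 880.4 in f1f3, 6492 and 4164 in pifq and 5584 and 3992 in Col. FBA2 had 14243 and 9336 in f1f3, 36704 and 32258 in pifq and 21048 and 16477 in Col. Both were lowest in f1f3, and for FBA2 the pifq libraries stood above all others. FBA1 fell in f1f3 (limma adjusted p = 0.00994, log2 fold change -1.90, SE 0.36), a call lost without f1f3 replicate 2 (0.0564), and FBA2 did not pass there (-0.69, SE 0.30, adjusted p = 0.129, and 0.0396 with DESeq2). In pifq neither passed, at 0.14 for FBA1 and 0.89 for FBA2 (adjusted p = 0.862 and 0.125), though FBA2 passed with DESeq2 (0.0112). Between the mutants both were higher in pifq, by 2.04 (adjusted p = 0.00852) and 1.58 (adjusted p = 0.0114). The FBA2 call ended without f1f3 replicate 2 (0.0648) or pifq replicate 1 (0.055). The ratio of FBA1 to FBA2 was 0.127 and 0.0943 in f1f3, 0.177 and 0.129 in pifq and 0.265 and 0.242 in Col.

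RPI3 (AT3G04790) was the Calvin cycle gene with no reduction in f1f3. Its values were 1698 and 1136 in f1f3, 2871 and 2128 in pifq and 1315 and 767.5 in Col, so that f1f3 overlapped Col and pifq lay above both. RPI3 rose in pifq by 1.298 (SE 0.30, limma adjusted p = 0.0446) and was at 0.47 in f1f3 (adjusted p = 0.289). The call ended without Col replicate 2 (0.192) or either pifq library (0.079 and 0.23), and with edgeR and RLE factors (0.0519). Among the remaining 5 genes of the step, HCEF1 (AT3G54050), SBPASE (AT3G55800) and RPE (AT5G61410) fell in f1f3 (-2.06, -1.10 and -0.96). The call for RPE ended without f1f3 replicate 2 (0.0837) or Col replicate 2 (0.092). TIM (AT2G21170) and TKL1 (AT3G60750) did not pass, at -0.53 and -0.39. In pifq these 5 genes lay between -0.20 and 0.65 and none passed.

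CP12 proteins tie glyceraldehyde-3-phosphate dehydrogenase and PRK into an inactive complex in the dark. CP12-1 (AT2G47400) had 3109 and 949.7 in f1f3, 11304 and 5232 in pifq and 8403 and 3871 in Col. The 2 libraries of each genotype differed widely, with replicate 1 the higher in all 3, and both f1f3 libraries were below both Col libraries. The change in f1f3 was -1.73 (SE 0.60, limma adjusted p = 0.0687) and that in pifq 0.43 (adjusted p = 0.723). With the replicate number as a block in the limma fit, the fall in f1f3 passed (adjusted p = 0.000751). That setting called 7436 genes in all, against 5018. CP12-1 was higher in pifq than in f1f3 by 2.16 (adjusted p = 0.0449), a call lost without f1f3 replicate 2 (0.218) or either pifq library (0.0649 and 0.189) and with edgeR (0.0576) or DESeq2 (0.0833). CP12-2 (AT3G62410) was expressed at low values, 47.6 and 44.8 in f1f3, 85.4 and 70.4 in pifq and 83.5 and 158.4 in Col. Its f1f3 libraries were the lowest, and the pifq and Col libraries overlapped. CP12-2 fell in f1f3 (log2 fold change -1.299, SE 0.37, adjusted p = 0.0369) and did not pass in pifq (-0.56, adjusted p = 0.399). The fall ended without either f1f3 library (0.0926 and 0.135), Col replicate 2 (0.229) or either pifq library (0.0515 and 0.0522), with library totals (0.0589) and with no filter on low values (0.0516).

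The chloroplast part of photorespiration comprises phosphoglycolate phosphatase (PGLP1), which opens the route, glycerate kinase (GLYK), which closes it, and the glutamine synthetase GS2 and ferredoxin-dependent glutamate synthase GLU1, which take back the ammonia released. Of these 4 genes 3 fell in f1f3 (median -1.29), 1 rose in pifq (median 0.89), and 4 were higher in pifq than in f1f3 (median 2.06). GLU1 (AT5G04140) had 2955 and 3289 in f1f3, 16019 and 19560 in pifq and 6464 and 9400.0 in Col, with the 3 genotypes fully separated. It fell in f1f3 (limma adjusted p = 0.00902, log2 fold change -1.32, SE 0.24) and rose in pifq by 1.18 (SE 0.24, adjusted p = 0.03). The fall ended without Col replicate 2 (0.0634), and the rise without any one of the Col or pifq libraries (0.0523 to 0.175). GS2 (AT5G35630) had 9920 and 6829 in f1f3, 26530 and 32129 in pifq and 15109 and 14987 in Col, again in 3 separate groups. GS2 fell in f1f3 (log2 fold change -0.87, SE 0.27, adjusted p = 0.0496), close to the threshold, and did not pass in pifq (0.96, adjusted p = 0.0786), where it passed with DESeq2 (0.00142) and with library totals (0.0484). That fall ended when either Col library, f1f3 replicate 2 or either pifq library was left out (0.0602 to 0.222), with edgeR and RLE factors (0.0522) and with no filter (0.0711). GLU1 and GS2 were higher in pifq than in f1f3 by 2.51 (adjusted p = 0.000733) and 1.83 (adjusted p = 0.00398). GLYK (AT1G80380) fell in f1f3 (-1.27). PGLP1 (AT5G36700) had values of only 18 to 158.9, and its coding sequence is identical to that of the copy PGLP1B (AT5G36790), so its level is uncertain. Its change in f1f3 was -1.47 (limma adjusted p = 0.0619, and 0.0287 with DESeq2). It was higher in pifq than in f1f3 by 2.30 (adjusted p = 0.0179), a call lost without either f1f3 library (0.0793 and 0.06) or pifq replicate 2 (0.121).

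The peroxisomal step held AGT1, which with CA1 had the lowest fold change of the 36 genes in f1f3, beside genes close to the Col level. Of its 6 genes, 4 fell in f1f3 (median -1.59). In pifq none passed, also at an unadjusted p under 0.05 and with edgeR or DESeq2 (median -0.10). AGT1 (AT2G13360, TAIR10.1 chr2:5538740-5541479) encodes the serine:glyoxylate aminotransferase. It had 217 and 199.2 in f1f3, 2117 and 3730 in pifq and 3266 and 4129 in Col. The f1f3 libraries were far below every other library, and pifq overlapped Col. AGT1 fell in f1f3 (limma adjusted p = 0.000805, log2 fold change -4.14, SE 0.27) and was higher in pifq than in f1f3 by 3.75 (adjusted p = 0.000234). Its change in pifq against Col was -0.39 (adjusted p = 0.427, 95% interval -1.003 to 0.23).

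GGT1 (AT1G23310), the glutamate:glyoxylate aminotransferase, had 1548 and 1284 in f1f3, 6195 and 10166 in pifq and 5140.4 and 5672 in Col. HPR1 (AT1G68010), which reduces hydroxypyruvate to glycerate, had 939 and 635.5 in f1f3, 2757 and 2996 in pifq and 2695 and 2932 in Col. For both genes the f1f3 libraries were well below all others. GGT1 fell in f1f3 (limma adjusted p = 0.00344, log2 fold change -1.94, SE 0.25) and so did HPR1 (-1.86, SE 0.21, adjusted p = 0.00258). In pifq they were at 0.56 and 0.03 (adjusted p = 0.234 and 0.95), and relative to f1f3 pifq was higher by 2.49 and 1.89 (adjusted p = 0.000867 and 0.0013).

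Glycolate oxidase, which makes glyoxylate and hydrogen peroxide, is encoded by the neighbours GOX2 (AT3G14415, TAIR10.1 chr3:4818251-4821013) and GOX1 (AT3G14420, chr3:4821391-4824178), 90.9% identical in coding sequence. GOX1 had 2430 and 2002 in f1f3, 4148 and 4601 in pifq and 5525 and 5532 in Col. GOX2 had 5183 and 4778 in f1f3, 6645 and 5692 in pifq and 5435 and 5578 in Col. The groups were separate for GOX1, with f1f3 lowest and Col highest, while all 6 values of GOX2 lay close together. GOX1 fell in f1f3 (limma adjusted p = 0.00389, log2 fold change -1.33, SE 0.18), and GOX2 was at -0.15 (adjusted p = 0.602, 95% interval -0.58 to 0.28). In pifq they were at -0.34 and 0.16 (adjusted p = 0.304 and 0.661). The ratio of GOX1 to GOX2 was 0.469 and 0.419 in f1f3, 0.624 and 0.808 in pifq and 1.02 and 0.992 in Col, without overlap of the groups. GOX1 was also higher in pifq than in f1f3, by 0.99 (adjusted p = 0.0102), a call lost without f1f3 replicate 2 (0.064) or pifq replicate 2 (0.0656). CAT2 (AT4G35090), the catalase that removes the hydrogen peroxide, had values of 13479 to 20829 in the 6 libraries and did not pass in any comparison by limma, edgeR or DESeq2.

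In the mitochondrion the glycine decarboxylase complex (P protein GLDP1 and GLDP2, T protein GLDT, H protein GDCH) and the serine hydroxymethyltransferase SHM1 turn glycine into serine and release CO2 and ammonia. By median the changes were the smallest of the 3 compartments, at -0.65 in f1f3 (3 of 5 fell) and -0.01 in pifq (1 of 5 rose). GLDP1 (AT4G33010) had 5121 and 5177 in f1f3, 7320.1 and 9114 in pifq and 8764 and 8994 in Col. GLDP2 (AT2G26080) had 6217 and 6690.1 in f1f3, 5572 and 6364 in pifq and 6458 and 5943 in Col. The f1f3 libraries were the lowest for GLDP1, whereas all genotypes overlapped for GLDP2. GLDP1 fell in f1f3 (limma adjusted p = 0.0263, log2 fold change -0.79, SE 0.20), a call lost without any one of the Col or f1f3 libraries (0.0759 to 0.13), and GLDP2 was at 0.06 (adjusted p = 0.851, 95% interval -0.38 to 0.50). In pifq they were at -0.12 and -0.06. The ratio of GLDP1 to GLDP2 was 0.824 and 0.774 in f1f3, 1.31 and 1.43 in pifq and 1.36 and 1.51 in Col.

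SHM1 (AT4G37930) had 2696 and 2729 in f1f3, 6849 and 8144 in pifq and 3885 and 4637 in Col. Its 3 genotypes were fully separated in the same order as for GLU1 and RCA. It fell in f1f3 (limma adjusted p = 0.0422, log2 fold change -0.65, SE 0.19), rose in pifq by 0.82 (SE 0.19, adjusted p = 0.0446) and was higher in pifq than in f1f3 by 1.46 (adjusted p = 0.00236). Both calls against Col were close to the threshold. With edgeR and TMM factors they had adjusted p of 0.0524 and 0.0516, and with library totals 0.102 and 0.0585. The fall also ended without any one of the Col or f1f3 libraries (0.0896 to 0.233), and the rise without any one of the 6 libraries (0.061 to 0.233). GDCH (AT2G35370) fell in f1f3 (-0.67), a call lost with library totals (0.077) and without any one of the Col or f1f3 libraries (0.0511 to 0.193). GLDT (AT1G11860) was at -0.48 there and did not pass.

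**Figure D4:**
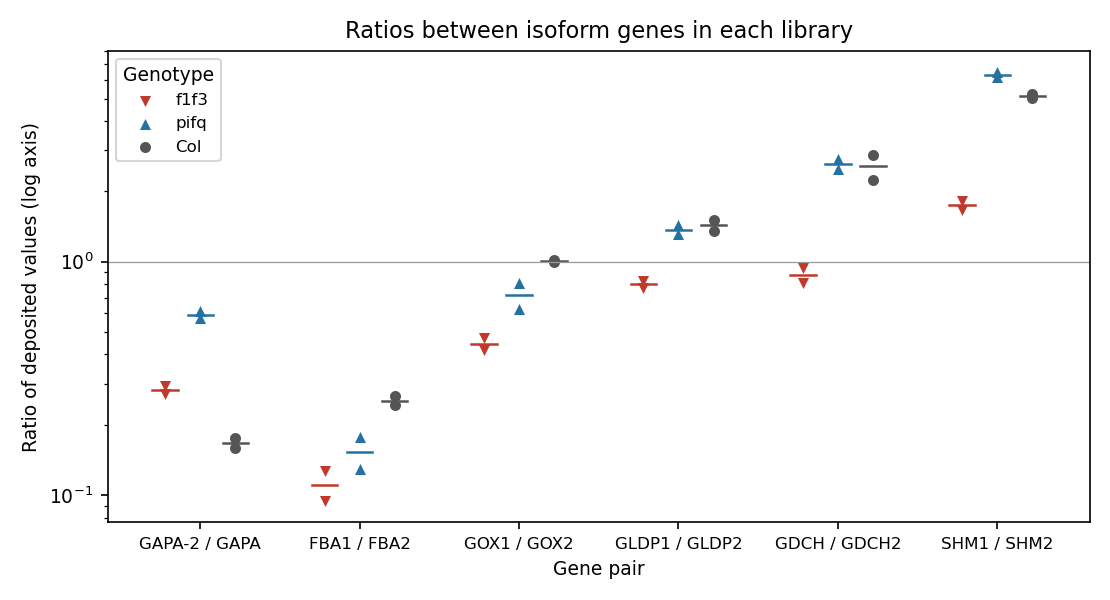
Ratio of the deposited values of 2 genes for the same enzyme (log axis) in each library, with a line at the group mean. The f1f3 points lie below both Col points for 5 of the 6 pairs plotted and above them for GAPA-2 over GAPA.

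In 2 pairs that are not plotted f1f3 overlapped Col. The ratio of RBCS3B to RBCS1A was 0.288 and 0.258 in f1f3, 0.340 and 0.412 in pifq and 0.253 and 0.284 in Col. That of CP12-2 to CP12-1 was 0.0153 and 0.0472 in f1f3, 0.00755 and 0.0135 in pifq and 0.00994 and 0.0409 in Col. A lower ratio in f1f3 was also measured where the second copy is not among the 36. The ratio of SHM1 to SHM2 (AT5G26780) was 1.82 and 1.67 in f1f3, 6.17 and 6.49 in pifq and 5.03 and 5.23 in Col. That of GDCH to GDCH2 (AT2G35120), another H protein gene, was 0.940 and 0.806 in f1f3, 2.48 and 2.75 in pifq and 2.25 and 2.87 in Col. SHM2 rose in f1f3 by 0.91 (SE 0.17, limma adjusted p = 0.00938) and GDCH2 by 0.87 (SE 0.18, adjusted p = 0.0135). The call for SHM2 ended without Col replicate 1 or f1f3 replicate 2 (highest adjusted p 0.0614). That for GDCH2 ended without Col replicate 2 or either f1f3 library (highest 0.075). The ratios are of values not corrected for gene length, so that the change between libraries can be read but not the level. The ratios are given as values and were not tested.

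The summed transcript of the Calvin cycle in f1f3 was a smaller share of the Col level than that of photorespiration. The sums and their ratio were not tested. The values of the 21 Calvin cycle genes summed to 257448 and 168912 in f1f3, 567237 and 631868 in pifq and 563103 and 505010.0 in Col. Those of the 15 photorespiration genes summed to 67548 and 62192 in f1f3, 113513 and 135310.0 in pifq and 94061 and 99568 in Col. The f1f3 mean was 0.399 of the Col mean for the Calvin cycle and 0.670 for photorespiration, and the pifq mean was 1.12 and 1.29 of it. The ratio of the Calvin cycle to the photorespiration sum was 3.81 and 2.72 in f1f3, 4.997 and 4.67 in pifq and 5.99 and 5.07 in Col. Both f1f3 libraries had the lowest ratios, and both pifq libraries were slightly below both Col libraries. Since the 4 small subunit genes dominate the sum, the ratio was also taken without them. It was then 1.37 and 1.01 in f1f3, 2.22 and 1.907 in pifq and 1.904 and 1.65 in Col. Here f1f3 stayed lowest, and the lower pifq library was barely above the higher Col library. CAT2 carries much of the photorespiration sum in f1f3. The sums were also taken without the 4 small subunit genes and CAT2, a choice made after the values were seen. The f1f3 mean was then 0.453 of the Col mean for the Calvin cycle and 0.563 for photorespiration. The pifq mean was then 1.49 and 1.38 of the Col mean, so that in pifq the order of the pathways turned. The ratio of these sums was 1.97 and 1.51 in f1f3, 2.52 and 2.20 in pifq and 2.36 and 2.02 in Col. The groups were closer together, with f1f3 still lowest, and pifq and Col overlapped.

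**Figure D5:**
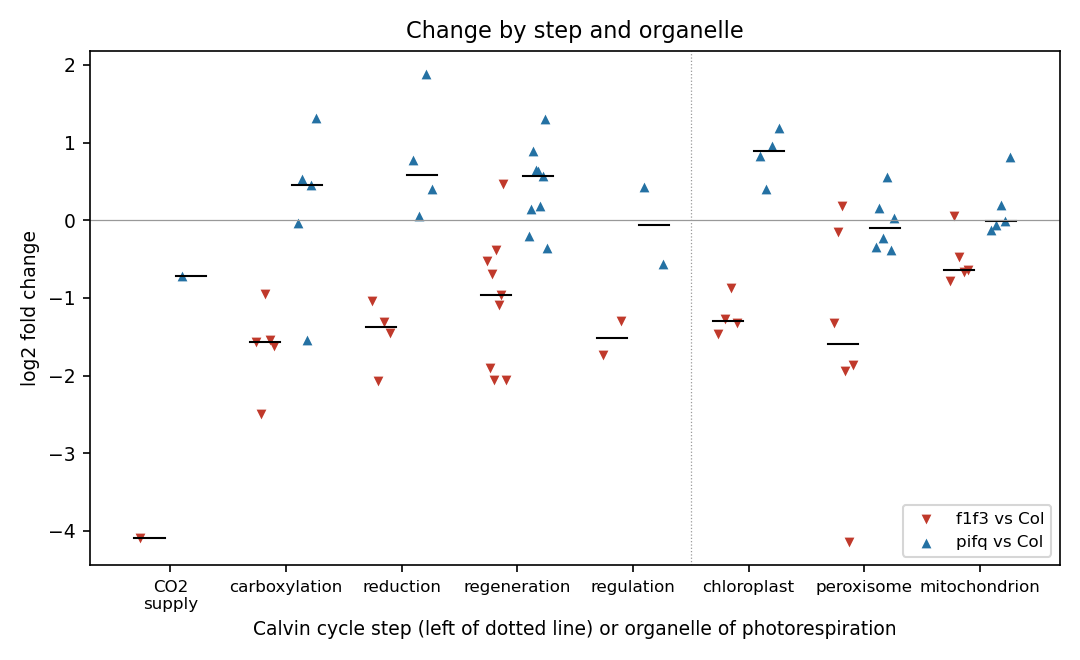
Log2 fold change of each gene in f1f3 against Col (red) and in pifq against Col (blue) by Calvin cycle step and, right of the dotted line, by organelle of photorespiration, with a line at the median. The f1f3 medians run between -0.65 in the mitochondrion and -4.09 for CA1, and the pifq median is highest in the chloroplast part of photorespiration, at 0.89.

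The 2 f1f3 libraries stood apart from each other in the Calvin cycle genes. All 21 Calvin cycle genes were higher in f1f3 replicate 1 than in f1f3 replicate 2, with a median log2 difference of 0.59. Of the 15 photorespiration genes 9 were higher in that library, with a median of 0.12. In pifq the numbers higher in replicate 1 were 12 of 21 and 3 of 15, and in Col 15 of 21 and 3 of 15. Genes measured in the same libraries are not independent measurements.

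Genes that work beside the 36 were counted from further lists, against the same backgrounds. Of 6 other Calvin cycle and carbonic anhydrase genes, 1 fell in both mutants, CA2, and TKL2 (AT2G45290), a transketolase, rose in f1f3 (limma adjusted p = 0.0198, log2 fold change 0.85, SE 0.20). The call for TKL2 ended without Col replicate 2 or f1f3 replicate 2 (highest adjusted p 0.124). Of 7 thioredoxin system genes, whose proteins switch Calvin cycle enzymes on in the light, none passed in f1f3 by limma or edgeR, 1 fell with DESeq2 and 2 were lower at an unadjusted p under 0.05. In pifq 3 of the 7 rose: NTRC (AT2G41680) by 1.51 (SE 0.17, limma adjusted p = 0.00347), TRXF1 by 1.25 (SE 0.25, adjusted p = 0.0264) and TRXM4 by 1.09 (SE 0.23, adjusted p = 0.031). The calls for TRXF1 and TRXM4 ended without any one of the Col or pifq libraries (highest adjusted p 0.127 and 0.174). Of 8 Rubisco assembly factors 7 were tested. None passed in f1f3 by limma, edgeR or DESeq2 (1 higher and 1 lower at an unadjusted p under 0.05), and 2 rose in pifq. One of them was BSD2 (AT3G47650), which rose by 0.74 (SE 0.16, limma adjusted p = 0.0317), a call lost without any one of the Col or pifq libraries (highest 0.163). The large subunit gene of Rubisco, RBCL, which lies on the chloroplast genome, had 4153 and 4799 in f1f3, 11055 and 10554 in pifq and 20629 and 6083 in Col. The 2 Col libraries were far apart for it. By limma it did not pass in f1f3 against Col (log2 fold change -1.33, adjusted p = 0.0772), and it fell there with edgeR (0.0467 with TMM factors, 0.0477 with RLE factors) and DESeq2 (0.00248). In pifq against f1f3 it rose with DESeq2 (0.0229) and not by limma (0.11) or edgeR (0.109 with TMM factors, 0.112 with RLE factors). In a limma fit of only the 2 groups compared, without the Col libraries, it passed (0.00965).

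Among 16 further genes of photorespiration, its transporters and second gene copies, 5 rose and 3 fell in f1f3. PLGG1 (AT1G32080), the plastid exporter of glycolate and importer of glycerate, fell (limma adjusted p = 0.00218, log2 fold change -1.70, SE 0.18). PMDH2 (AT5G09660), a peroxisomal malate dehydrogenase, fell (-1.31, SE 0.20, adjusted p = 0.00482), and GDCH3 (AT1G32470), an H protein gene, likewise (-1.08, SE 0.18, adjusted p = 0.00668). The 5 that rose were SHM2 and GDCH2, given above, and PMDH1 (AT2G22780), the other peroxisomal malate dehydrogenase, mtLPD2 (AT3G17240), an L protein gene of glycine decarboxylase, and DIT2 (AT5G64290), a plastid dicarboxylate transporter. The last 3, named after their values were seen, had changes of 0.88, 0.64 and 0.75 (limma adjusted p = 0.0294, 0.0253 and 0.0385). Each of these 3 calls ended without any one of the Col or f1f3 libraries (highest 0.13, 0.121 and 0.219). In pifq DIT1 (AT5G12860), a plastid dicarboxylate transporter, rose by 1.54 (SE 0.26, adjusted p = 0.0157), a call lost without either Col library or pifq replicate 2 (highest 0.0989). Of 12 genes for cytosolic enzymes that catalyse the same reactions as plastid members, 4 rose in f1f3. GLN1;3 (AT3G17820), a cytosolic glutamine synthetase, rose by 0.87 (SE 0.18, adjusted p = 0.013), PGK3 (AT1G79550) by 0.94 (SE 0.26, adjusted p = 0.0336) and the aldolase FBA8 (AT3G52930) by 1.14 (SE 0.33, adjusted p = 0.039). Each of these calls ended without Col replicate 2 or f1f3 replicate 2 (highest 0.092, 0.197 and 0.235). Those for PGK3 and FBA8 also ended without the other library of either group, and that for FBA8 without pifq replicate 2. None of the 12 fell by limma or edgeR, and 1 fell with DESeq2 and was lower at an unadjusted p under 0.05. In pifq none of the 12 passed by limma or edgeR, and 1 was higher with DESeq2 and at an unadjusted p under 0.05. The ratio of GS2 to GLN1;3 was 1.73 and 1.19 in f1f3, 8.80 and 12.5 in pifq and 4.51 and 5.14 in Col, without overlap.

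Short motifs before the start codon were counted in both pathways. In the 500 bases before the start codon, 16 of 21 Calvin cycle genes and 0 of 15 photorespiration genes held an I-box (GATAAG, either strand), against 23.8% of 22766 genes. A G-box (CACGTG) was found in 9 Calvin cycle genes and 1 photorespiration gene, GLDP1, against 10.1% of all genes. The PBE-box (CACATG) was in 4 and 1 (all genes 17.6%), and CCAATC, bound by the GLK factors, in 8 and 5 (21.5%). In the window of 250 bases before to 50 after the annotated gene start the I-box was in 6 and 2 genes (14.7%) and the G-box in 4 and 2 (8.5%). The PBE-box was there in 4 and 0 (13.0%) and CCAATC in 2 and 2 (12.4%). The longer window was chosen after the sequences before the start codons of the small subunit genes had been seen. The reason was that annotated gene starts lay a median of 336 bases before the start codon in the 36 genes and 192 bases in all genes. The counts are a description of letters, and no test was made.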

How the data were processed

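RNA-seq was done on 6 libraries of dark-grown seedlings, 2 biological replicates for each of f1f3, pifq and Col, grouped by the genotype labels. The submitters' processing notes name Trimmomatic, TopHat2 (2.1.0), HTSeq (0.6.1), edgeR and the build TAIR10. Which step made the deposited values, how reads with several matches were treated and whether strand was used are not given in the sources used here. The deposited signal value of each gene is written to 1 decimal, and 99.98% to 100% of the values in a library were whole multiples of 1 number (0.799 to 1.29) within 0.0505. Reads recovered in this way, by undoing the authors' scaling, came to 17899476 to 27681383 per library. A gene that overlaps another, or that has a near-identical copy, is uncertain.

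The values were tested with limma 3.58.1 (R 4.3.3) with an intensity trend on log2(value + 1), two-sided, all 6 libraries in 1 fit, Benjamini-Hochberg over 20581 genes, 3 residual and 5.15 prior degrees of freedom. The filter asked for a value of 10 in 2 libraries. Alternatives were edgeR 4.0.16 with TMM or RLE factors and DESeq2 1.42.0 on recovered reads, library totals, pseudocounts of 0.5 and 10, no filter, only the compared groups, the replicate number as a block and each library left out. The fits were tested on simulated data. Exon lengths, coordinates and sequences are from RefSeq's TAIR10.1, and motifs were searched on both strands with overlaps allowed. Protein sequences were not used here, and identity was computed on coding sequences in their place. The members, gene lists and tests were chosen with earlier results of these data known. All 36 genes are named. Full values are given for the small subunit genes, the pairs of gene copies and each gene called in pifq. They are also given for the 4 smallest adjusted p per comparison and pathway. At most 3 genes are named per list of other pathway genes and comparison. The further photorespiration genes in f1f3 are the exception, since each gene called there is named. The values of 1 listed gene are not reported here. Each limma p-value sets a difference against the spread between 2 biological replicates per group. That spread is pooled over all 6 libraries and moderated by the spread of other genes.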

Additional observations from a re-analysis of the deposited data

How the results depend on the processing

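With a library left out, the log2 fold change of a member crossed 0 for GLDP2 in f1f3 against Col (-0.001955 to 0.1178) and, in pifq against Col, for RBCS1A (-0.132 to 0.06806), GAPA (-0.08513 to 0.1816), TIM (-0.4189 to 0.01385), FBA1 (-0.181 to 0.4595), CP12-1 (-0.1278 to 0.9903), AGT1 (-0.7943 to 0.02246), HPR1 (-0.02853 to 0.09298), GLDP1 (-0.2784 to 0.03778), GLDP2 (-0.1529 to 0.03879) and GDCH (-0.1382 to 0.1185). None passed the test in the fits where its sign turned.

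Against Col, f1f3 had 5018 genes called in all, and 1422 to 4663 with a library left out, 14 Calvin cycle genes (7 to 15) and 10 photorespiration genes (5 to 9). For pifq against Col the numbers were 1333 genes in all, 2434 with DESeq2, 2915 with the replicate block and 365 to 1233 with a library left out. The 4 Calvin cycle genes became 2 with no filter, 7 with the replicate block and 1 to 4 with a library left out. The 2 photorespiration genes became 1 with edgeR and TMM factors, with edgeR and RLE factors, with no filter and with only the compared groups, and 0 to 1 with a library left out. For pifq against f1f3, 3291 genes in all became 5458 with the replicate block and 1388 to 2859 with a library left out. The cause of these shifts was not tested, beyond the fewer samples in the fits with a library left out.

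Replicate numbers are shared by the labels and mark no stated batch. Deviations of same-numbered libraries correlated at 0.345 (f1f3 and Col), 0.444 (pifq and Col) and 0.215 (pifq and f1f3) over 20581 genes. With the replicate block 20 Calvin cycle genes (1 rose, RPI3) and 12 photorespiration genes were called in f1f3 against Col, RBCS1A among them (adjusted p = 0.0104). Scaling to library totals moved the median of all genes by 0.12 in f1f3 against Col and -0.13 in pifq against f1f3. The split of all calls in f1f3 against Col was then 2915 that rose and 2090 that fell, against 2384 and 2634, and in pifq against f1f3 1523 and 1897, against 1927 and 1364. The calls of 7 of 14 Calvin cycle genes and 5 of 10 photorespiration genes in f1f3 held in every setting, as did 1 of 6 in pifq. For pifq against f1f3, those of 12 of 15 Calvin cycle genes and 7 of 10 photorespiration genes held in every setting.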
